A study of Mus musculus with 6 samples.

Results

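The genes described here are 38 mouse genes that encode heterogeneous nuclear ribonucleoproteins (hnRNPs) and other RNA-binding regulators of splicing. A gene was taken from the deposited tables where its Ensembl identifier maps to one of the 38 symbols, and all 38 were found among 36889 gene identifiers. For 3 of them, Hnrnpa3, Hnrnpm and Hnrnpu, the tables join the gene with an overlapping gene into 1 aggregate, whose counts were used. Polyadenylated RNA was sequenced, labelled as from podocytes, the epithelial cells that form the filtration slits of the kidney. There were 3 libraries labelled as CD2BP2 knockout (KO) and 3 labelled as wild type (WT), all with the genetic background given as C57BL/6. CD2BP2 is known as a component of the U5 particle of the spliceosome that binds proline-rich partners through its GYF domain, and the study asks about its role in splicing and in podocytes. The labels describe an allele of CD2BP2 made in R1/E embryonic stem cells with a loxP site after exon 3 of 7, and they do not name the Cre driver used for the podocytes. Their treatment text describes floxed MxCre mice given poly(I:C) and bone marrow macrophages grown from them, which goes against the labelled cell type. Whether each library stands for its own animal is not said in the labels, so a p-value here measures only how far these samples spread, and that spread may be technical.

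An hnRNP or a related regulator binds short sequence motifs in a nascent transcript and raises or lowers the use of nearby splice sites, so that the balance of such proteins sets which exons a cell includes. Many of these regulators also act on their own transcripts: inclusion of an exon that brings an early stop codon, or splicing after the stop codon, sends the transcript to nonsense-mediated decay and limits the amount of protein. In the kidney, ESRP1 and ESRP2 are known as regulators of epithelial splice forms in tubule cells, while podocytes carry a mixed epithelial and mesenchymal programme.

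Counts here are read counts per exonic part, a piece of exon cut wherever any annotated transcript has an exon boundary, and a gene count is the sum over the parts of the gene. A read that spans several parts appears to count in each of them. In KO1 the 1-base part 15 of Rbm39 held 3734 counts and the 2-base part 16 beside it 3740. A gene count is thus not a number of reads, and it grows with the number of parts. The libraries held 186022084 to 255554573 part counts each. A level is given in CPM, the gene count scaled by edgeR to a library of 1 fixed normalised size. Levels of different genes are compared only in CPM per kilobase of exon. That measure still depends on how finely a gene is cut, from 7 to 71 parts per member. Cd2bp2, the targeted gene, had 48.4, 47.3 and 51.0 CPM in KO1, KO2 and KO3, against 61.0, 61.8 and 60.8 CPM in WT1, WT2 and WT3 (log2 fold change -0.32, SE 0.047, edgeR quasi-likelihood test, Benjamini-Hochberg adjusted p = 0.0297). Its transcript was thus lower in each KO library and still present. The call passed in 9 of 17 alternatives and in 1 of the 6 fits that left out a library, at adjusted p between 4.55e-08 and 0.146. Podocyte markers were abundant in all 6 libraries, with a summed level of 19415 to 21201 CPM over 8 genes in KO and 21837 to 24546 CPM in WT, and 1 of the 8 fell. Of 8 macrophage and myeloid markers 4 rose, with sums of 184 to 203 CPM in KO against 94.7 to 125 CPM in WT. Of 12 proximal tubule markers 2 rose (sums of 980 to 1458 CPM in KO, 566 to 1151 CPM in WT), and of 12 markers of loop, distal tubule and collecting duct 1 rose (345 to 1624 CPM in KO, 235 to 414 CPM in WT). Of 8 heat shock and immediate early genes, which respond to tissue handling, 5 fell (4095 to 5375 CPM in KO, 6643 to 10216 CPM in WT). The heat shock genes Hspa1a, Hspa1b, Dnajb1, Hsph1 and Hspa8 were lower in every KO library than in every WT library. Hsph1 had 78.9, 80.5 and 81.5 CPM in KO, against 206.3, 201.8 and 340.4 CPM in WT. For the immediate early genes Fos, Jun and Egr1 the groups overlapped. Egr1 had 450.6, 375.3 and 739.5 CPM in KO, against 408.1, 1202.2 and 726.2 CPM in WT. Whether tissue handling differed between the groups was not tested. No endothelial, mesangial or lymphocyte marker passed the test, and no marker was at 0 in every library. Over all genes tested 1.76% were called lower and 1.62% higher in KO. Summed over 6 genes each, endothelial markers held 5843 to 6182 CPM in KO and 6329 to 6655 CPM in WT. Markers of mesangium and smooth muscle held 2393 to 2853 CPM in KO and 2541 to 2709 CPM in WT. Markers of both kinds were thus detected in every library, so RNA of these cell types was present beside that of podocytes. The marker sums are not scaled by gene length and cover different genes, so they do not rank the cell types. The part of these markers in the results below was not tested, and in bulk RNA fewer cells of a type and less RNA per cell cannot be told apart.

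The transcripts of the splicing regulators differed little between KO and WT, and most of the small differences lay on the low side. None of the 38 genes passed edgeR's quasi-likelihood test at an adjusted p of 0.05, where 3.37% of all 19742 genes tested were called, 1.76% lower and 1.62% higher in KO. At an unadjusted p under 0.05 there were 13 members, 10 with a lower and 3 with a higher level in KO, against 22.6% of all genes and 11.2% of all genes on the low side. By DESeq2 9 members passed, against 14% of all genes, and by limma-voom 0 passed, against 2.49%. With the replicate number as a block 0 passed too, against 0.415%. The 8 that DESeq2 called lower in KO were Celf1, Hnrnpl, Hnrnpll, Qk, Rbm25, Rbm5, Srrm2 and Tial1, and the 1 it called higher was Esrp1. The log2 fold change lay below 0 in 29 of the 38, or 76.3%, against 49.1% of all genes. Its median was -0.10 over the members and 0.0051 over all genes tested. The change was within 0.2 log2 units either way in 24 members, below -0.2 in 11 and above 0.2 in 3, the 3 being Esrp1, Esrp2 and Rbm47.

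**Figure D1:**
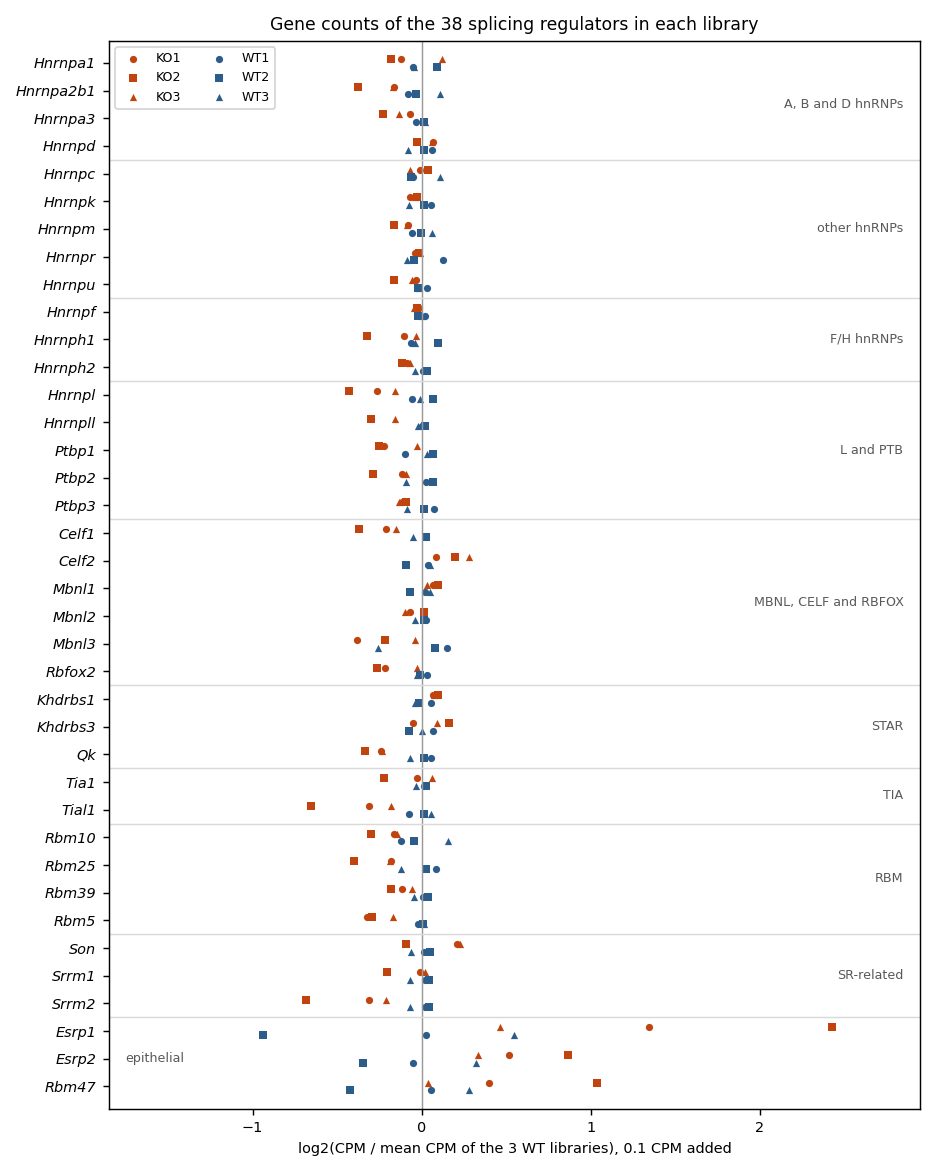
Level of each of the 38 splicing regulators in each library, as log2 of CPM over the mean CPM of the 3 WT libraries with 0.1 CPM added (x axis), with genes grouped by role (y axis); orange symbols are KO libraries and blue symbols WT libraries, with circle, square and triangle for replicates 1, 2 and 3. Most KO symbols lie a little left of 0, KO2 has the lowest level of 22 genes, and the 3 epithelial regulators at the bottom lie to the right in KO2.

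The low side was most marked in KO2, and KO3 stood close to the lowest WT library. Of the 38 members 30, 29 and 26 lay below the WT mean in KO1, KO2 and KO3, against 12, 15 and 24 in WT1, WT2 and WT3. Median member levels relative to the WT mean were -0.09, -0.18 and -0.05 log2 units in KO1, KO2 and KO3, against 0.02, 0.01 and -0.03 in WT1, WT2 and WT3, while the medians over all genes stayed between -0.011 and 0.0047. KO2 had the lowest level of 22 of the 38 members and the highest level of 6. Without KO2, 28 members still had a log2 fold change below 0, with a median of -0.09. KO and WT libraries did not overlap for 20 members, 17 with all KO libraries below all WT libraries and 3 with all above. Over all genes these shares were 14.8% and 14.1%, against 44.7% and 7.89% of the members. The members are measured in the same 6 libraries, so they are not independent of each other. KO2 was also the library with the highest sum of loop, distal tubule and collecting duct markers, 1624 CPM, and the part of that difference in the member levels was not tested.

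**Figure D2:**
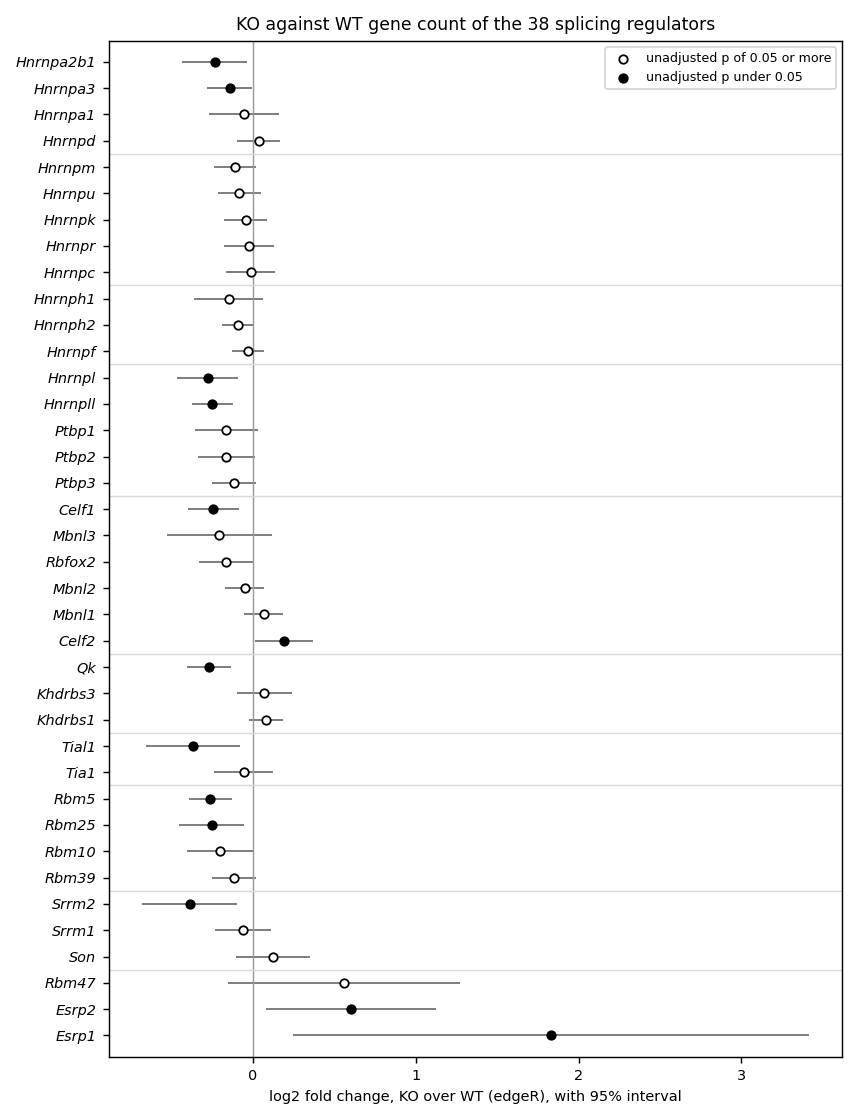
Log2 fold change of KO over WT with its 95% interval (x axis) from edgeR for the 38 splicing regulators (y axis), in blocks by role from A, B and D hnRNPs at the top to the epithelial regulators at the bottom; filled points have an unadjusted p under 0.05. The intervals of most members lie within 0.5 log2 units of 0, that of Esrp1 runs from 0.25 to 3.42, and no member had an adjusted p under 0.05.

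The A, B and D hnRNPs bind exonic and intronic silencers and, for hnRNP D, AU-rich elements that govern mRNA stability. Hnrnpa2b1 had the highest level per kilobase of the members. It had 197, 170 and 196 CPM per kilobase in KO1, KO2 and KO3, against 209, 216 and 238 in WT1, WT2 and WT3. All KO libraries lay below all WT libraries, and the log2 fold change in gene count was -0.23 (SE 0.083, edgeR adjusted p = 0.168). Hnrnpa3 had 621, 555 and 593 CPM in KO, against 637, 658 and 659 CPM in WT (log2 fold change -0.14, edgeR adjusted p = 0.208). Its groups did not overlap either, with KO1 close to WT1. Hnrnpa1, the best studied splicing silencer of the family, had 155, 149 and 183 CPM in KO and 163, 180 and 163 CPM in WT, and its groups overlapped. Hnrnpd had 161, 151 and 161 CPM in KO, against 161, 155 and 146 CPM in WT, with a log2 fold change of 0.04. That value came from the sum over all parts, and the longest part alone gave -0.36, the opposite direction. The longest part is part 1, at the far end of the last exon and held by 1 of 12 transcripts. Its share of the gene count was lower in each KO library, as given below with its neighbours.

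Of the other hnRNPs, none had an unadjusted p under 0.05. Hnrnpm, whose protein binds GU-rich intronic sequence, had 376, 355 and 374 CPM in KO, against 382, 396 and 414 CPM in WT, without overlap of the groups (log2 fold change -0.11, edgeR adjusted p = 0.276). Hnrnpk, which encodes a poly(C)-binding protein, was next to Hnrnpa2b1 in level per kilobase and had 898, 923 and 919 CPM in KO, against 980, 953 and 894 CPM in WT. Its groups overlapped, since WT3 was the lowest of all 6 libraries. The log2 fold change was -0.08 for Hnrnpu, a scaffold protein of the nuclear matrix whose groups did not overlap, -0.02 for Hnrnpr and -0.01 for Hnrnpc, which binds uridine tracts. The sign was not the same in every fit for Hnrnpk (below 0 in 17 of 18), Hnrnpr (16 of 18) and Hnrnpc (15 of 18). The F and H hnRNPs, which bind runs of G, gave -0.09 for Hnrnph2, -0.15 for Hnrnph1 and -0.03 for Hnrnpf. The value of Hnrnph2 was -0.30 from its longest part alone, and that of Hnrnph1 was -0.08 without KO2. Hnrnph2 had 99.3, 97.6 and 101 CPM in KO, against 106, 108 and 103 CPM in WT, without overlap of the groups and with an edgeR adjusted p of 0.256.

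All 5 members of the L and PTB group, whose proteins bind CA repeats (hnRNP L and LL) or pyrimidine tracts (the PTB proteins) and mostly repress exons, had log2 fold changes below 0. The share below 0 was 76.3% over the 38 members and 49.1% over all genes. Hnrnpll, known for its role in CD45 splicing in lymphocytes, had 64.6, 64.6 and 71.1 CPM in KO, against 79.7, 80.4 and 78.3 CPM in WT (log2 fold change -0.25, SE 0.053, edgeR adjusted p = 0.0600). Each KO library was lower than every WT library. Hnrnpl had 314, 281 and 339 CPM in KO, against 363, 395 and 374 CPM in WT (log2 fold change -0.28, SE 0.079, edgeR adjusted p = 0.111), again without overlap. Ptbp2, the neuronal paralog of Ptbp1, had 37.1, 32.9 and 37.6 CPM in KO, against 40.9, 42.03 and 37.6 CPM in WT, with KO3 and WT3 at almost the same level (log2 fold change -0.16, edgeR adjusted p = 0.250). Ptbp1 and Ptbp3 gave -0.16 and -0.11 with edgeR adjusted p of 0.282 and 0.287, and the groups overlapped for Ptbp1 and not for Ptbp3.

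MBNL and CELF proteins act against each other on many exons that switch during muscle and heart development, and RBFOX2 is a form of RBFOX that is not limited to neurons. Celf1 had 175, 157 and 182 CPM in KO, against 206, 207 and 196 CPM in WT (log2 fold change -0.24, SE 0.066, edgeR adjusted p = 0.103). Celf2 went the other way, with 25.7, 27.7 and 29.3 CPM in KO, against 24.8, 22.7 and 25.1 CPM in WT (log2 fold change 0.19, SE 0.074, edgeR adjusted p = 0.195). In neither gene did the groups overlap, though for Celf2 KO1 and WT3 lay close together. Rbfox2 had 127, 123 and 145 CPM in KO, against 151, 147.2 and 145 CPM in WT (log2 fold change -0.17, edgeR adjusted p = 0.228), with KO3 level with WT3. Of the muscleblind genes, Mbnl1 gave a log2 fold change of 0.06, Mbnl2 -0.05 and the weakly expressed Mbnl3 -0.21, and their groups overlapped. The value of Mbnl3 was -0.13 without KO1, -0.13 without WT1 and -0.32 without WT3.

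The STAR family proteins QK and KHDRBS1 (Sam68) bind paired UA-rich motifs. Qk had the smallest unadjusted p of all members, 0.0023, with 459.8, 432 and 461 CPM in KO, against 564, 548 and 518 CPM in WT (log2 fold change -0.27, SE 0.056, edgeR adjusted p = 0.0581). The KO libraries all lay below WT, and KO2 was the lowest. The log2 fold change was below 0 in 18 of 18 fits, with log2 fold changes from -0.32 to -0.10 and adjusted p from 0.00018 to 0.589, and the value nearest 0 came from the longest part alone. Khdrbs1 and Khdrbs3 gave 0.08 and 0.07, with edgeR adjusted p of 0.336 and 0.606, and the groups did not overlap for Khdrbs1, where each KO library was a little higher.

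The TIA proteins bind U-rich sequence next to weak 5′ splice sites and favour their use. Tial1 had 91.5, 71.9 and 100.1 CPM in KO, against 108, 114 and 118 CPM in WT (log2 fold change -0.37, SE 0.12, edgeR adjusted p = 0.147), without overlap and with KO2 well below the rest. From its longest part alone the log2 fold change was -0.50, which was the only member call of that fit, 1 of 37 members against 2.38% of all genes, and over all fits its adjusted p ran from 0.026 to 0.3496. Tia1 had 129, 113 and 137 CPM in KO, against 133, 134 and 128 CPM in WT, its groups overlapped, and the log2 fold change, -0.06 over all parts and -0.24 from the longest part alone, was below 0 in 17 of 18 fits.

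RBM5 and RBM10 are related proteins that act on exons of apoptosis genes, RBM25 binds exonic CGGGCA elements, and RBM39 is a U2AF-like protein and the target of aryl sulfonamide degraders. All 4 of these RBM genes had every KO library below every WT library, as had 44.7% of the members and 14.8% of all genes. The groups lay close together for Rbm10 (72.8 CPM in KO3, 73.9 CPM in WT1) and Rbm39 (784 CPM in KO3, 790 CPM in WT3). Rbm5 had 183, 187 and 204 CPM in KO, against 226, 231 and 233 CPM in WT (log2 fold change -0.26, SE 0.055, edgeR adjusted p = 0.0582), without overlap and with all 3 WT libraries close together. Rbm25 had 157, 135 and 156 CPM in KO, against 189, 181 and 163 CPM in WT (log2 fold change -0.25, SE 0.083, edgeR adjusted p = 0.148). Rbm10 and Rbm39 gave -0.20 and -0.12, with edgeR adjusted p of 0.224 and 0.270, and Rbm10 gave -0.12 without WT3.

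SRRM1, SRRM2 and SON are large proteins rich in arginine and serine, and SRRM2 and SON form the core of nuclear speckles. Srrm2 had 573, 443 and 614 CPM in KO, against 719.8, 734 and 679 CPM in WT (log2 fold change -0.39, SE 0.12, edgeR adjusted p = 0.135). It was lower in each KO library, with KO2 far below the other two. Son, its partner in speckles, had 1111, 903 and 1123 CPM in KO, against 969.5, 993 and 921 CPM in WT (log2 fold change 0.12, edgeR adjusted p = 0.496), with KO2 the lowest and KO3 the highest of the 6. Without KO1, KO2 and KO3 in turn the value of Son was 0.07, 0.21 and 0.06. Srrm1 gave -0.06 over all parts and -0.21 from its longest part alone.

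The epithelial regulators were the members with the lowest levels and the largest differences. Esrp1 had 1.25, 2.75 and 0.633 CPM in KO, against 0.441, 0.178 and 0.676 CPM in WT (log2 fold change 1.83, SE 0.66, edgeR adjusted p = 0.174). KO3 lay inside the WT range, so the groups overlapped, and KO2 was by far the highest library. Without KO2 the log2 fold change of Esrp1 was 1.11 (edgeR adjusted p = 0.381), and over the 16 fits that tested it the value ran from 1.11 to 2.69, with adjusted p from 0.031 to 0.391. Esrp2 had 6.30, 8.07 and 5.54 CPM in KO, against 4.23, 3.42 and 5.48 CPM in WT (log2 fold change 0.60, SE 0.22, edgeR adjusted p = 0.174), without overlap but with KO3 and WT3 close together. Rbm47, an RNA-binding protein that also supports APOBEC1 editing, had 7.45, 11.7 and 5.78 CPM in KO, against 5.85, 4.17 and 6.86 CPM in WT (log2 fold change 0.56, SE 0.30, edgeR adjusted p = 0.317), with overlap. Without KO2 its log2 fold change was 0.22 (edgeR adjusted p = 0.681), and over 18 fits it ran from 0.22 to 0.93, with adjusted p from 0.144 to 0.681. All 3 were highest in KO2 and lowest in WT2, as were the summed markers of loop, distal tubule and collecting duct, at 1624 CPM in KO2 and 235 CPM in WT2. Among the tubule markers, Umod, the uromodulin gene of the thick ascending limb, had 221, 591 and 88.2 CPM in KO, against 130.1, 82.5 and 110.1 CPM in WT. The part of tubule RNA in these values was not tested.

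**Figure D3:**
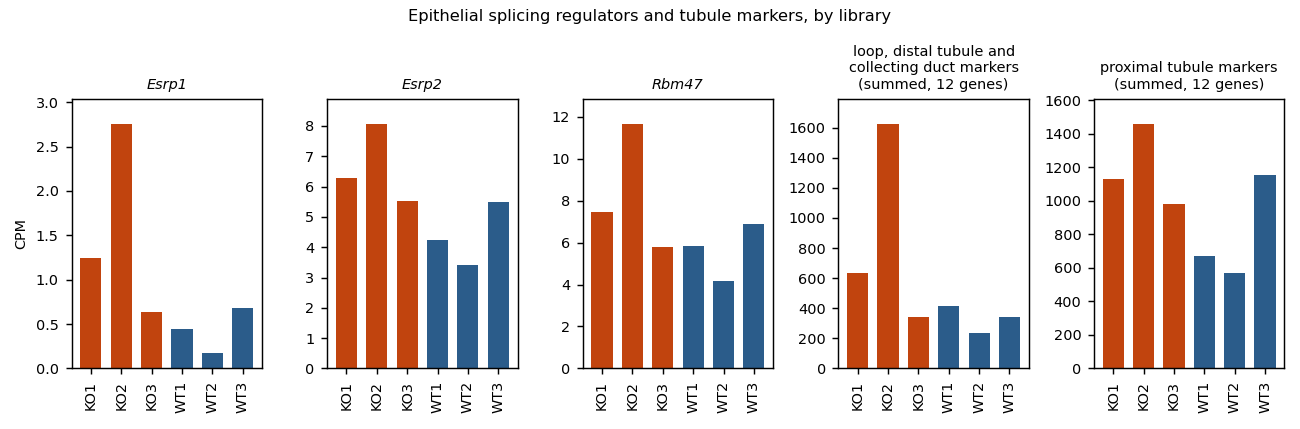
CPM (y axes, from 0) of Esrp1, Esrp2 and Rbm47 and the summed CPM of 12 loop, distal tubule and collecting duct markers and 12 proximal tubule markers in each library (x axes), with KO libraries in orange and WT libraries in blue. KO2 is highest and WT2 lowest in each panel, from 2.75 against 0.178 CPM for Esrp1 to 1458 against 566 CPM for the proximal tubule sum.

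Exon usage asks whether an exonic part took a different share of its gene's count, apart from any change in the gene as a whole. Of 1069 member parts tested with diffSpliceDGE in edgeR, 1 was called at an adjusted p of 0.05, against 0.0627% of 236061 parts of all genes. At an unadjusted p under 0.05 there were 19 member parts, 11 with a higher and 8 with a lower share in KO, from 8 genes, against 1.16% of all parts. KO and WT shares did not overlap for 79 member parts on the high side and 67 on the low side, 13.7% in all, against 11.2% of all parts. Each of the 19 was a part that not every transcript of its gene holds, a class that made up 899 of the 1069. Summed up per gene by Simes' method, 0 members passed, against 0.383% of 15145 genes, while 2 members, Hnrnpd and Rbm39, passed by limma-voom diffSplice, against 1.59%. With the gene total as an offset in edgeR 6 member parts passed, against 0.131% of all parts, and 0 members by Simes, against 0.627% of genes, and with limma-voom 8 passed, against 0.173%. Parts of Hnrnpd, Rbm39, Tia1 and Qk were called by at least 1 of these methods. Sequences are given for the coding cassette of Hnrnpd and for exons of Rbm39 and Tia1 that bring a stop codon, and none is printed for the called parts of Hnrnpd downstream of the stop codon or for Qk.

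The sequences come from the GENCODE M21 transcripts (GRCm38), matched by transcript identifier and exon length to the parts, and the coordinates are those of the deposited tables (NCBIM37). In the first, capitals mark a coding cassette exon between flanking coding bases. In the other 3, capitals mark the stop codon that the exon brings into frame, and the sequence runs from 12 bases of the upstream exon to that stop codon.
Hnrnpd 57-base exon, chr5:100405553-100405609, minus strand: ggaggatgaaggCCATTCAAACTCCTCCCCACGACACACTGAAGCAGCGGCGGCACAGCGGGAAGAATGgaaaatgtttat
Rbm39 73-base exon, chr2:156004616-156004688, minus strand: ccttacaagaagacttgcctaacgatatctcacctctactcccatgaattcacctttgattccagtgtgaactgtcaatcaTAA
Rbm39 55-base exon, chr2:156002139-156002193, minus strand: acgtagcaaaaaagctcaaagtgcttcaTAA
Tia1 66-base exon, chr6:86373600-86373665, plus strand: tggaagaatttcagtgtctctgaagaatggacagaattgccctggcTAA

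The called part was part 9 of Hnrnpd (ENSMUSG00000000568), 71 bases at chr5:100391153-100391223 on the minus strand, which lies downstream of the stop codon of the coding transcripts and is held by 3 of 12 transcripts. Those of the 3 that were matched to GENCODE M21 are annotated as targets of nonsense-mediated decay. The counts of part 9 were 332, 182 and 245 in the KO libraries, against 334, 334 and 333 counts in WT1, WT2 and WT3. Its share of the Hnrnpd count was 0.794%, 0.548% and 0.634% in KO, against 1.12%, 1.19% and 1.00% in WT. All KO shares lay below all WT shares, by a usage change of -0.74 log2 units (diffSpliceDGE in edgeR, adjusted p = 0.0459). Set against the coding part just upstream in the same library, part 9 stood at 9.89 ± 1.93% in KO and 16.9 ± 1.54% in WT (SD, n = 3 each; the two-sided exact permutation p was 0.1, which is as small as 3 against 3 can give). The call rests on the set of libraries. It was lost without KO1 (adjusted p = 0.0546), KO2 (0.565), KO3 (0.180), WT1 (0.413) or WT2 (1) and kept without WT3 (0.0498), with adjusted p from 0.000102 to 1 over 14 alternatives and a lower share in KO in each.

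The neighbours of part 9 lay on the same side. Parts 8 to 11, the whole run whose matched transcripts are all decay targets, took 2.50%, 1.72% and 2.03% of the Hnrnpd count in KO, against 3.17%, 3.47% and 2.81% in WT. The groups did not overlap, and all 4 parts, which can share reads, had the lower mean share in KO. This run, the other blocks below and the exon ratios were chosen after their values were seen, so their separation is no test. The far end of the last exon, parts 1 to 4, took 4.54%, 4.26% and 4.10% in KO, against 6.46%, 5.65% and 5.34% in WT, again without overlap. The 57-base coding cassette printed above, parts 25 and 26, lay on the other side, with 5.22%, 4.67% and 4.40% in KO, against 3.59%, 3.80% and 3.64% in WT. This cassette distinguishes known protein forms of hnRNP D, and relative to the coding exon downstream part 25 stood at 34.05 ± 2.46% in KO and 27.7 ± 0.674% in WT (SD, n = 3 each; two-sided exact permutation p = 0.1). Relative to the coding part upstream, part 26 stood at 84.3 ± 9.37% in KO and 72.5 ± 3.99% in WT, and there the groups overlapped. The unadjusted p of parts 25 and 26 was 0.0054 and 0.0076 in diffSpliceDGE, both had adjusted p near 1, and limma-voom called both. The other coding cassette of Hnrnpd, part 13, stood at 114 ± 1.72% of its upstream neighbour in KO and 109 ± 2.94% in WT, with overlap, although its share of the gene count was a little higher in every KO library (5.33 ± 0.130% in KO, 5.05 ± 0.193% in WT, SD, n = 3 each; unadjusted p = 0.55 in diffSpliceDGE).

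**Figure D4:**
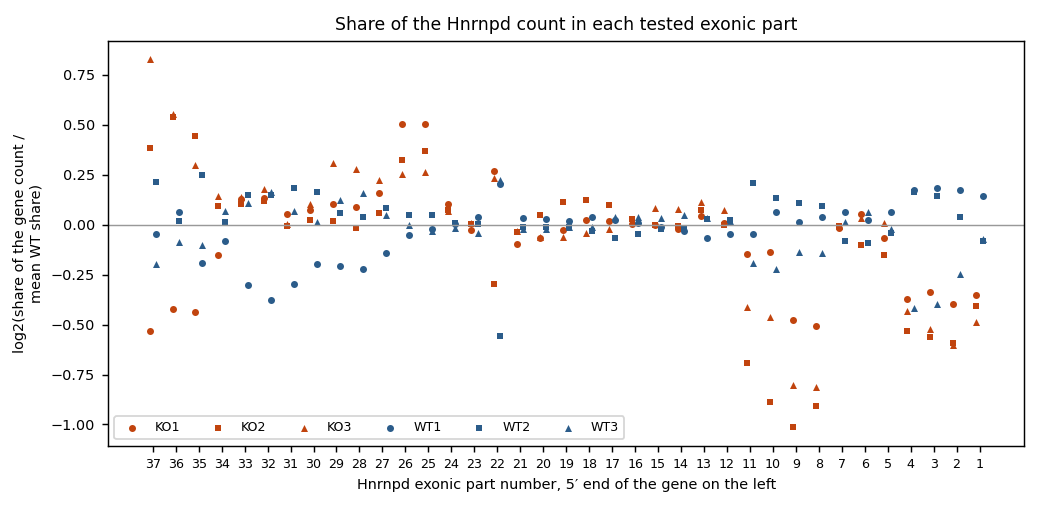
Share of the Hnrnpd count in each tested exonic part, as log2 of the share over the mean WT share (y axis), by part number from the 5′ end at the left (x axis); orange symbols are KO libraries and blue symbols WT libraries, with circle, square and triangle for replicates 1, 2 and 3. KO lies below WT in parts 8 and 9 and in parts 1 and 2, and above WT in parts 25 and 26.

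In Rbm39 the share of parts of non-coding transcripts lay on the high side in KO. Between its first coding exons lie 15 parts (within parts 37 to 55, 1530 bases) whose matched transcripts are all annotated as non-coding or decay targets. These took 12.9%, 13.4% and 12.7% of the Rbm39 count in KO, against 10.1%, 11.9% and 11.9% in WT. Left out were the coding parts 41 and 44 to 46, of which 41, 45 and 46 also had higher shares in every KO library, while 44 overlapped. Their unadjusted p in diffSpliceDGE was 0.019 for part 41 and 0.91, 0.87 and 0.75 for parts 44, 45 and 46. Within the block, the mean share was higher in KO in 15 of the 15 parts, of which 3 had an unadjusted p under 0.05 in diffSpliceDGE. Neighbouring parts can hold the same reads, so the 15 are not separate observations. The groups did not overlap (13.03 ± 0.383% in KO and 11.3 ± 1.05% in WT, SD, n = 3 each, two-sided exact permutation p = 0.1), with WT1 the lowest library. The block was chosen after its values were seen, so neither its separation nor that p is a test of it. The 55-base exon printed above, part 42, stood at 19.6%, 22.6% and 19.4% of the upstream coding part in KO, against 13.1%, 15.4% and 16.7% in WT. The 73-base exon, part 54, stood at 91.3%, 101% and 89.4% of its upstream coding part in KO, against 63.0%, 74.6% and 75.3% in WT. For both the KO libraries lay above the WT libraries, with unadjusted p of 0.0022 and 0.014 in diffSpliceDGE and adjusted p near 1. Limma-voom called parts 42, 43 and 54, and the offset fit called part 43. Part 43 has 175 bases and is held by 1 transcript annotated as a retained intron.

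In Tia1 the 66-base exon printed above, parts 39 and 40, is held by decay, processed and retained-intron transcripts. It took 2.05%, 1.95% and 1.88% of the Tia1 count in KO, against 1.27%, 1.37% and 1.42% in WT. Relative to the upstream coding exon, part 40 stood at 45.4%, 44.4% and 42.4% in KO, against 27.4%, 31.6% and 31.7% in WT, without overlap. The unadjusted p of part 40 was 0.0041 in diffSpliceDGE, its adjusted p was near 1, and the offset fit called it. The other non-coding parts upstream of it took 22.7 ± 0.392% in KO and 22.9 ± 0.615% in WT, and the gene count itself differed by -0.06 log2 units.

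**Figure D5:**
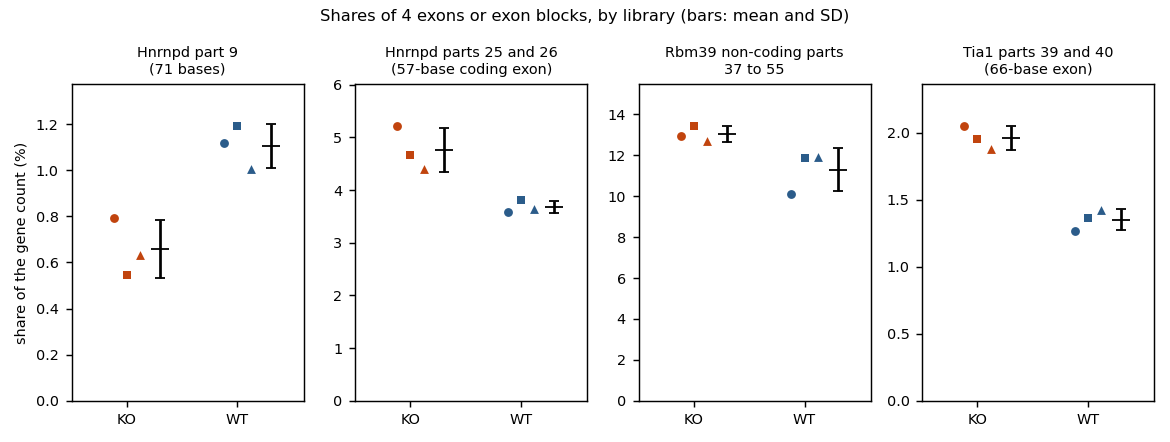
Share of the gene count (y axes, percent, from 0) in Hnrnpd part 9, the Hnrnpd 57-base exon, the non-coding ones among Rbm39 parts 37 to 55 and the Tia1 66-base exon, with each KO library (orange, left) and WT library (blue, right) as a point and mean and SD as bars. KO lies below WT for Hnrnpd part 9 (0.548% to 0.794% against 1.00% to 1.19%) and above WT in the other 3 panels.

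The best part of each remaining member among the 10 with the smallest Simes p did not pass. Mbnl3 part 8 has 2214 bases and Tial1 part 20 has 273 bases, each held by 1 transcript annotated as a retained intron. Mbnl3 part 8 took 1.12%, 1.52% and 1.07% of the gene count in KO, against 2.80%, 1.86% and 2.06% in WT (unadjusted p = 0.0044 in diffSpliceDGE). Tial1 part 20 took 2.10%, 2.10% and 2.39% in KO, against 1.65%, 1.75% and 1.52% in WT (unadjusted p = 0.013). Both parts separated the groups, in opposite directions. Qk part 10, 1217 bases held by 1 of 4 transcripts, took 3.89%, 3.64% and 4.17% in KO, against 4.76%, 4.47% and 4.89% in WT (unadjusted p = 0.037), and the offset fit called it. Esrp2 part 9 rested on few reads, with 29, 34 and 26 counts in KO, against 4, 2 and 11 counts in WT (unadjusted p = 0.017). Parts of Hnrnph2, Son and Esrp1 had unadjusted p of 0.080, 0.055 and 0.46. Ratios to a neighbouring exon were also taken for 4 further cassette exons, and in these 4 the groups overlapped. The 54-base exon of Mbnl2 stood at 8.34 ± 2.00% of its downstream neighbour in KO and 9.32 ± 0.201% in WT (SD, n = 3 each). The 39-base exon of Hnrnpa2b1 stood at 7.22 ± 0.431% in KO and 7.39 ± 0.0543% in WT, and the 34-base exon of Ptbp2, which decides between a coding and a decay transcript, at 44.8 ± 3.79% in KO and 40.8 ± 3.04% in WT. The 33-base exon of Tia1 stood at 65.8 ± 9.36% of its upstream neighbour in KO and 61.8 ± 6.63% in WT.

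Summed over a gene, the share of counts in parts that not every transcript holds could be taken for 13 members, and the groups did not overlap for 2, both lower in KO, against 11.6% of genes (5.56% higher and 5.99% lower). Hnrnpa2b1 had 34.5%, 33.4% and 34.8% in KO, against 35.5%, 35.6% and 35.0% in WT, and Rbm47 97.9%, 98.3% and 98.3% in KO, against 98.6%, 98.8% and 98.4% in WT. Both differences were about 1 percentage point or less. The share in parts held only by non-coding transcripts, among those matched to GENCODE M21, could be taken for 20 members, and the groups did not overlap for 4, against 12.8% of genes (4.99% higher and 7.78% lower). It was higher in KO for Rbm39 (13.6 ± 0.278% in KO, 11.9 ± 1.03% in WT) and Celf1 (0.170 ± 0.0132% in KO, 0.132 ± 0.00763% in WT), and lower for Hnrnpd (2.26 ± 0.426% in KO, 3.31 ± 0.293% in WT) and Mbnl3 (1.90 ± 0.461% in KO, 3.23 ± 0.889% in WT; SD, n = 3 each). The share ran from 0.0479% in Ptbp3 to 28.7% in Tia1 among the WT means, so members differed far more from each other than KO from WT. These counts depend on single libraries, and with 1 library fewer more genes show no overlap. The first count was 7 of 13 without WT3, against 22.9% of genes. The second was 9, 7 and 7 of 20 without KO2, KO3 and WT3, against 26.1%, 27.3% and 21% of genes.

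Genes outside the 38 were counted in lists of related proteins. Of 16 other hnRNP genes, with a median log2 fold change of -0.02, 1 fell, against 1.76% of all genes, and none rose. The one was Taf15, a FET family protein, with 71.4, 67.6 and 70.5 CPM in KO, against 83.9, 89.6 and 89.5 CPM in WT (log2 fold change -0.33, edgeR adjusted p = 0.0309). It passed in none of the 6 fits that left out a library, with adjusted p of 0.059 to 0.148. Of 47 other RNA-binding splicing regulators tested, of 51 listed, 36 lay below 0, against 49.1% of all genes, with a median of -0.14. In this list 1 gene rose, against 1.62% of all genes, and none fell. The one was Rbfox1, the neuronal and muscle paralog of Rbfox2, at 1.09, 1.87 and 1.45 CPM in KO, against 0.657, 0.522 and 0.601 CPM in WT (log2 fold change 1.30, edgeR adjusted p = 0.0456), and it too passed in none of those 6 fits (0.076 to 0.186). Of 13 SR protein genes none passed, and 5 had an unadjusted p under 0.05 in edgeR, against 22.6% of all genes. In 12 the log2 fold change lay below 0, against 49.1% of all genes, and the median was -0.18, beside 0.0051 over all genes. The 3 with the smallest p were Tra2b at 157 ± 9.87 CPM in KO and 188 ± 3.79 CPM in WT, Tra2a at 74.4 ± 10.5 CPM in KO and 99.4 ± 3.27 CPM in WT, and Srsf7 at 110.2 ± 11.8 CPM in KO and 137 ± 6.71 CPM in WT (SD, n = 3 each), with edgeR adjusted p of 0.065, 0.087 and 0.108.

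Of 20 textbook target genes of these regulators, 1 passed the exon usage test by Simes' method, against 0.383% of all genes. It was Tpm1, the gene of alpha-tropomyosin and a known PTB target, in which 3 parts of 882, 1109 and 240 bases (parts 7, 16 and 9, in 1, 1 and 3 of 21 transcripts) were called, each with a lower share in KO. Parts 7 and 9 lie close together, and part 16 is held only by a processed transcript. Whether PTB acts on these parts was not tested. Part 7 took 1.04%, 0.780% and 1.39% of the Tpm1 count in KO, against 1.61%, 1.61% and 1.58% in WT (diffSpliceDGE in edgeR, adjusted p = 0.0127). The KO shares were lower in each library, with KO2 the lowest. The Simes adjusted p of 0.0383 held among the fits without 1 library only when KO3 was left out, passed in 6 of 14 alternatives and ranged from 9.7e-05 to 1 over them. Fgfr2, the best known ESRP target, had an unadjusted p of 0.0051 in diffSpliceDGE for part 57, the smallest of 79 parts tested. Tjp1, which encodes a tight junction protein, had 0.0036 for part 13, the smallest of 34. Adjusted p was near 1 for both parts, and the unadjusted Simes p was 0.205 for Fgfr2 and 0.122 for Tjp1. Both parts had lower usage in KO, with overlap of the groups for Fgfr2 and not for Tjp1. Whether part 57 is an exon that ESRP proteins act on was not tested. None of the remaining targets, Pkm, Numb, Mcl1 and Insr among them, had a part past the test.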

How the data were processed

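The deposited tables give, per exonic part of Ensembl 67 genes on NCBIM37 (per the file headers), the read count, the covered bases and the covered fraction in 1 library; the authors' counting used no strand, since 61 of 62 pairs of parts on opposite strands with at least 90% overlap had counts within 10%. TopHat 1.4.1 is listed in the submitters' processing notes, beside a human genome build that the file headers contradict. Counts of 368092 parts were summed per identifier and tested with edgeR 4.0.16 (R 4.3.3; quasi-likelihood, TMM, filterByExpr), and part usage with diffSpliceDGE. DESeq2 1.42.0, limma 3.58.1, other filters and scalings, and leaving out each library were alternatives. Exact permutation tests used SciPy 1.17.1. Parts were classed by GENCODE M21 biotypes, for 315 of 358 member transcripts matched. Unmatched transcripts did not enter the class, so a part classed as non-coding may also lie in an unmatched transcript. Covered fractions were used only to inspect parts. Comparing counts between libraries of the same group showed no library deposited more than once within KO or within WT. No KO library was compared with a WT library in this way.

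The members, gene lists and tests were chosen with earlier results of these data known. Values in every library are given for the 10 members with the smallest p, the 3 highest and 3 lowest in level per kilobase, and 1 to 3 examples a role. Exon usage is given for the best part of the 10 members with the smallest Simes p, and shares for members whose groups did not overlap. Blocks of neighbouring parts and exon ratios were chosen after their values were seen.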

Additional observations from a re-analysis of the deposited data

How the results depend on the processing

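Member calls by gene count were 9 with DESeq2 and 1 of 37 when each gene was represented by its longest part (against 2.38% of genes), and 0 in every fit without 1 library (range 0 to 0). The median log2 fold change of the members ran from -0.127 to -0.0834 in the fits without 1 library and was -0.142 without KO3 and WT3 together. Member parts called by exon usage numbered 8 with limma-voom, 6 with the gene total as offset, and 0 with a total count of at least 10, without KO3 and WT3 together, or with only parts that overlap no other gene; without 1 library the range was 0 to 1. Members called by exon usage numbered 2 with limma-voom. Members whose groups did not overlap in the share of parts not in every transcript numbered 1 with parts in every transcript as denominator, 1 per base, and 2 to 7 without 1 library. For parts of non-coding transcripts only, an alternative added after seeing the data, they numbered 0 of 1 with the constant denominator and 4 to 9 without 1 library. The cause of these differences was not tested, except that fewer libraries overlap less often by construction. The replicate numbers are shared by KO and WT, but same-numbered libraries correlated at 0.121, -0.082 and 0.192 in their deviations, and KO2 correlated best with WT1. With the replicate number as a block, 0 members were called by gene count, the median was -0.1005, 82 genes in all were called against 666, and 1 member part was called (Hnrnpd part 9, adjusted p = 0.0244). Over all alternatives, 164 single-gene and single-part values stayed on the same side of their threshold, 10 passed and 8 no longer passed it. The 10 were the 9 DESeq2 calls and Tial1 by its longest part. All 8 were values of Hnrnpd part 9, the only one of these that passed in the main fit. The levels of Esrp1 rest on few reads (0.178 to 2.75 CPM), and the part of depth in its value was not tested.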
